A study of Mus musculus with 4 samples.

Results

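Cd36, Mfsd2a, Vldlr, Fabp1, Lipc and Lpl encode proteins that bring lipid into liver cells, bind it inside them, or release it from circulating lipoproteins. The 6 genes were chosen by symbol for these functions, with earlier results of these data known. All 6 were found among the 32285 genes of the count matrices. Counts of them set beside shares of all genes below are therefore descriptions only. They were followed by cell type, by position in the liver lobule and by feeding state.

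Nuclei came from flash-frozen mouse liver in 2 groups, fasted mice (16 to 24 h without food) and fed control mice, with 2 preparations per group. Each preparation represented 8 pooled livers, was made from 50 mg of tissue and was sequenced as 1 droplet library of single-nucleus RNA. Strain, sex, age and any genetic change are not given in the sources used here. Because livers were pooled, differences between mice within a preparation cannot be seen. The labels do not say that the preparations of a group came from separate mice. P-values between feeding states therefore measure the spread between preparations, part of which may be technical. Tests between cell types or positions, and of feeding effects between them, had library as a term. Their p-values measure the scatter left after the level of each library is removed.

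The libraries held 30955600 and 24139311 unique molecular identifiers (UMIs, 1 per captured transcript) in fasted 1 and 2, and 22924339 and 8078755 in fed 1 and 2. After filtering, 10150 and 6609 fasted nuclei and 8819 and 4146 fed nuclei remained. Fed 2 stood apart, with a median of 1042 UMIs per barcode and 4.61% of its UMIs from Gm42418, a transcript that overlaps ribosomal RNA. The other libraries had 0.204% to 1.01% from that transcript. Between 12 and 42 barcodes were shared by any pair of libraries. The nuclei fell into 20 clusters, named from marker genes with the 6 genes left out of the clustering. The names below stand for hepatocyte-like, endothelial-like, Kupffer-like, stellate-like, cholangiocyte-like and B or plasma cell-like clusters, and T or NK cell-like, mesothelial-like and dendritic-like clusters were too small to test. Most hepatocyte clusters came mainly from 1 library, among them a cluster of 1816 nuclei led by the acute-phase genes Saa2 and Saa1, 99.4% of it from fed 1. Fed 2 gave 98.2% of another hepatocyte cluster of 3378 nuclei. All hepatocyte clusters of a library were therefore summed. No cluster of adipocytes, neutrophils or fibroblasts was found.

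Fatty acids reach the hepatocyte on albumin or inside lipoproteins, and plasma membrane proteins such as Cd36 speed their entry. Lipases on the vessel wall free fatty acids from lipoprotein triglyceride, and receptors take up the particles themselves. During a fast, fatty acids from fat tissue are the main fuel of the liver. The lobule runs from the portal vessels, where blood enters, to the central vein, and hepatocytes along this path express different metabolic genes.

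Promoters are shown for 3 of the genes, described below for feeding state (Mfsd2a), feeding state and lobule position (Cd36) and lobule position (Vldlr). By feeding state, neither Mfsd2a nor Cd36 passed the main test across all genes. Each sequence is the 250 bases before the RefSeq start site (GRCm38.p6), read 5′ to 3′ on the strand of the gene. Cd36 lies on the minus strand at chr5:17781690-17888801, Mfsd2a on the minus strand at chr4:122946850-122961188 and Vldlr on the plus strand at chr19:27216484-27254231 (mm10), and the windows, of which that of Cd36 lies before a start site inside the annotated gene, are chr5:17835897-17836146, chr4:122961189-122961438 and chr19:27216234-27216483. Capitals mark the nuclear receptor hexamer AGGTCA, on either strand.
Mfsd2a: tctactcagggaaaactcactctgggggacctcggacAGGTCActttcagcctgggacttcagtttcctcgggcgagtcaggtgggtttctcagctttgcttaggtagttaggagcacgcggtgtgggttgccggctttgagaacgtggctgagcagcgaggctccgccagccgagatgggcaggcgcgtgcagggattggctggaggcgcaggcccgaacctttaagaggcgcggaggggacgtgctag
Cd36: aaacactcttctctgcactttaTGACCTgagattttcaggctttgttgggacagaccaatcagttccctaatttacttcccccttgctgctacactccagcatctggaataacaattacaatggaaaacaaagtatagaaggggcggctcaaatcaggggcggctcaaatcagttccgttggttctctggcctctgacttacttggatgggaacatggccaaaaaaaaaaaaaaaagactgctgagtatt
Vldlr: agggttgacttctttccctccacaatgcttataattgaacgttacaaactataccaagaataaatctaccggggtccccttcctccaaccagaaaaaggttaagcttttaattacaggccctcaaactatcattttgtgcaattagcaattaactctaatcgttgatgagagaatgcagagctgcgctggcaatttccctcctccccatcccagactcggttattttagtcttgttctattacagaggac
The hexamer was found 213 bases before the Mfsd2a start site and, on the opposite strand, 228 bases before the Cd36 start site. It was not found in the Vldlr window. The same letters occur in 14.0% of 32851 promoter windows of this length. Fabp1 (chr6:71199827-71205023) held the hexamer at 67 and 9 bases before its start, and the second listed start site of Lipc (chr9:70798128-70952226) at 88 and 76 bases. Neither ATCAAAG, the core letters bound by TCF/LEF factors of the Wnt pathway (3.21% of windows), nor DR1, a direct repeat of the hexamer with 1 base between (0.0335% of windows), was found in any window of Cd36, Fabp1, Lipc, Mfsd2a or Vldlr. Both strands were searched for exact letters only, so near matches were not counted, and the hexamer is part of the direct repeat. Only 11 of 32851 windows held the exact direct repeat, so its absence here says little about looser forms. Lpl lies at chr8:68880491-68907448.

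Cd36, a membrane glycoprotein that takes up long-chain fatty acids and oxidized lipoproteins, was highest in endothelial nuclei. Levels are UMI counts scaled to 1000000 UMIs over the summed nuclei (CPM). Endothelial nuclei had 226 and 157 CPM of Cd36 in fasted 1 and 2 and 166 and 64.9 CPM in fed 1 and 2. Kupffer nuclei had 66.5 and 28.5 CPM when fasted and 58.3 and 37.2 CPM when fed. Hepatocytes had 23.9 and 7.33 CPM when fasted and 7.25 and 8.55 CPM when fed. In every library the order was endothelial, Kupffer, hepatocyte. Over all libraries, stellate nuclei had 10.3 to 35.4 CPM, cholangiocytes 0 to 50.6 CPM and B or plasma cells 0 to 42.7 CPM. These ranges overlapped with those of both Kupffer nuclei and hepatocytes. Within each library, stellate nuclei lay between Kupffer nuclei and hepatocytes, from 64 and 5 UMIs when fasted and 12 and 1 UMIs when fed.

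Against hepatocytes, the log2 fold change of Cd36 was 3.75 (SE 0.27) in endothelial nuclei, with an adjusted p of 7.11e-14 in edgeR's quasi-likelihood test. In Kupffer nuclei it was 1.87 (SE 0.31, adjusted p 7.33e-06). Stellate nuclei (0.71, adjusted p 0.0957), cholangiocytes (1.00, adjusted p 0.106) and B or plasma cells (0.59, adjusted p 0.559) did not pass the threshold of 0.05. Across genes, 51.8% of 9244 tested differed between endothelial nuclei and hepatocytes and 36.4% between Kupffer nuclei and hepatocytes, so a difference between cell types was common. Cd36 was found in 16.7% and 14.7% of endothelial nuclei in the fasted libraries and in 12.8% and 5.81% in the fed libraries, at median depths of 768 to 886 UMIs. In T or NK cells, which should lack Cd36 or carry little, the shares were 6.18% and 0.926% in fasted and 2.41% and 0% in fed libraries, at medians of 756 to 1034 UMIs. With nuclei thinned to 1000 UMIs, endothelial shares were 17.3% and 17.1% when fasted and 17.6% and 0% when fed, the last from 0 of 36 nuclei in fed 2, where the 95% exact binomial interval reached 9.74%. At that depth T or NK cells had 5.77% and 0% when fasted and 8.82% and 0% when fed, from 52, 51, 34 and 3 cells. In fed 1 the T or NK interval reached 23.7%, above the endothelial share.

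**Figure D1:**
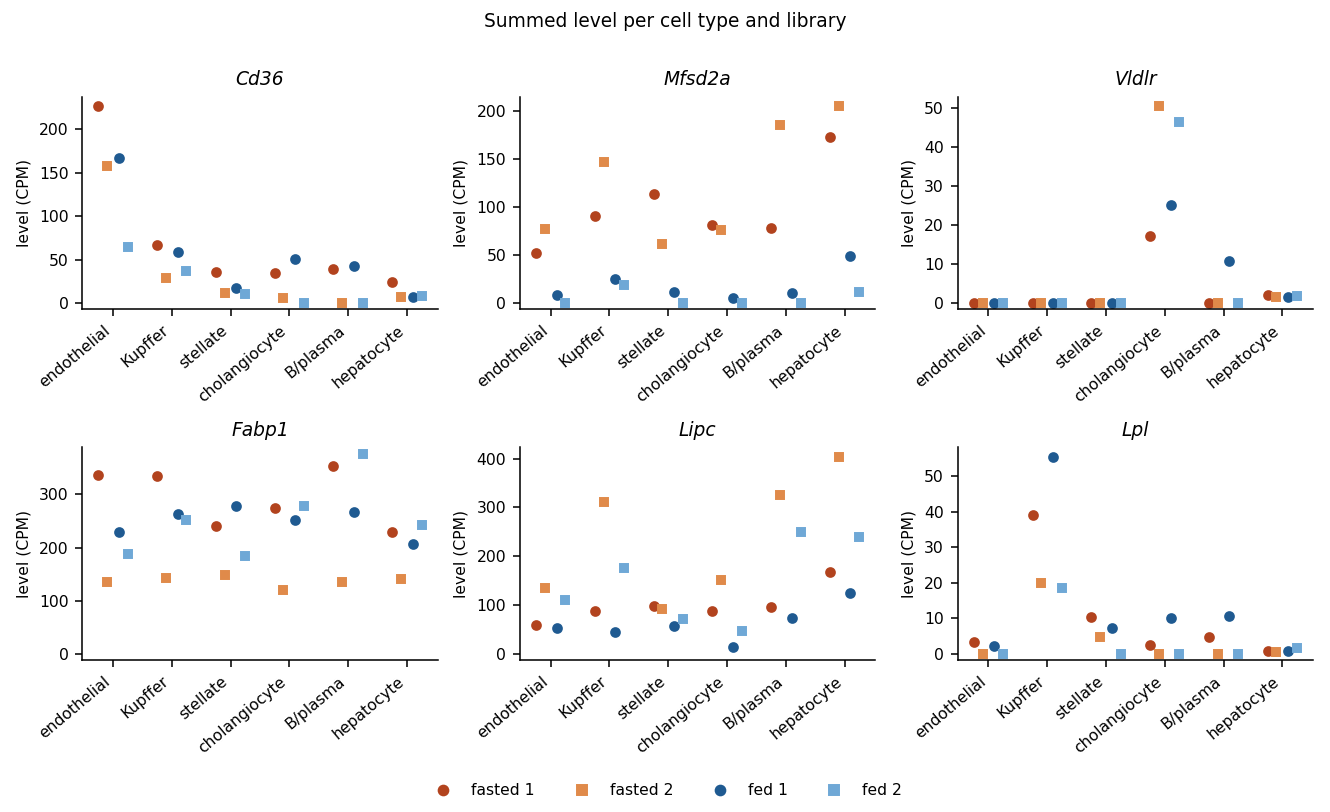
Level of each gene (CPM of summed UMIs, linear axis) in 6 cell types, 1 point per library, fasted libraries left of fed ones within each type. Cd36 is highest in endothelial nuclei (64.9 to 226 CPM), Lpl in Kupffer nuclei (18.6 to 55.3 CPM) and Vldlr in cholangiocytes (17.2 to 50.5 CPM), while Fabp1 has similar levels in all 6 types.

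Mfsd2a, a carrier of lysophosphatidylcholine, was highest in hepatocytes among the 6 tested types in both fasted libraries. The small dendritic-like cluster, which was not tested, had 132 and 247 CPM when fasted, from 5 and 7 UMIs, and 0 CPM in both fed libraries. Those fed values, from 27 and 3 nuclei, allowed up to 119 and 1140 CPM (3 counts, counting error only). Hepatocytes had 173 and 205 CPM of Mfsd2a in fasted 1 and 2 and 48.7 and 11.3 CPM in fed 1 and 2. Endothelial nuclei had 51.7 and 76.6 CPM when fasted and 8.83 and 0 CPM when fed. Kupffer nuclei had 90.7 and 147 CPM when fasted and 24.6 and 18.6 CPM when fed. Mfsd2a was lower than in hepatocytes in all 5 other types tested, with log2 fold changes from -0.95 (B or plasma cells, adjusted p 0.0464) to -1.94 (endothelial, adjusted p 1.29e-07). The call in B or plasma cells was lost without fasted 1, fed 1 or fed 2 (adjusted p 0.382, 0.278 and 0.0721), and that in Kupffer nuclei (-0.96, adjusted p 0.00496) without fasted 1 or fed 1 (0.0666 and 0.0516).

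Hepatocyte transcripts were common in the nuclei of other types. Albumin (Alb) stood in the 5 other types at 0.283 to 1.00 times its hepatocyte level in the same library, and apolipoprotein B (Apob) at 0.284 to 0.835 times. In endothelial nuclei of fasted 1 and 2, Mfsd2a stood at 0.299 and 0.374 times its hepatocyte level, beside 0.481 and 0.489 times for Alb. The part of free hepatocyte RNA in the levels of Mfsd2a, Fabp1 and Lipc outside hepatocytes was not tested.

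Fabp1, the abundant cytosolic fatty acid binding protein of hepatocytes, did not differ detectably between cell types. Hepatocytes had 230 and 140 CPM in fasted 1 and 2 and 207 and 242 CPM in fed 1 and 2. The 5 other types stood at 0.764 to 1.55 times the hepatocyte level of the same library, and T or NK cells had 295, 132, 285 and 313 CPM in the same order. Log2 fold changes against hepatocytes ranged from -0.17 (cholangiocytes) to 0.08 (B or plasma cells), with adjusted p of 0.831 to 0.910. Relative to Alb, described without a test, Fabp1 had 14.3 and 11.5 UMIs per 100 Alb UMIs in endothelial nuclei of fasted 1 and 2 and 18.2 and 16.8 in fed 1 and 2, while hepatocytes had 4.70 and 5.78 when fasted and 5.55 and 13.6 when fed.

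Lipc, the hepatic lipase that hepatocytes secrete onto the sinusoid wall, was highest in hepatocytes among the 6 tested types in 3 of the 4 libraries. Hepatocytes had 168 and 403 CPM in fasted 1 and 2 and 125 and 239 CPM in fed 1 and 2. In fed 2, B or plasma cells had 250 CPM. Lipc was lower than in hepatocytes in endothelial nuclei (log2 fold change -1.53, SE 0.23, adjusted p 1.47e-06), stellate nuclei (-1.38), cholangiocytes (-1.66) and Kupffer nuclei (-0.94, adjusted p 0.00205). The Kupffer call was lost without fed 1 (adjusted p 0.0552). B or plasma cells had -0.70 (adjusted p 0.0878).

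**Figure D2:**
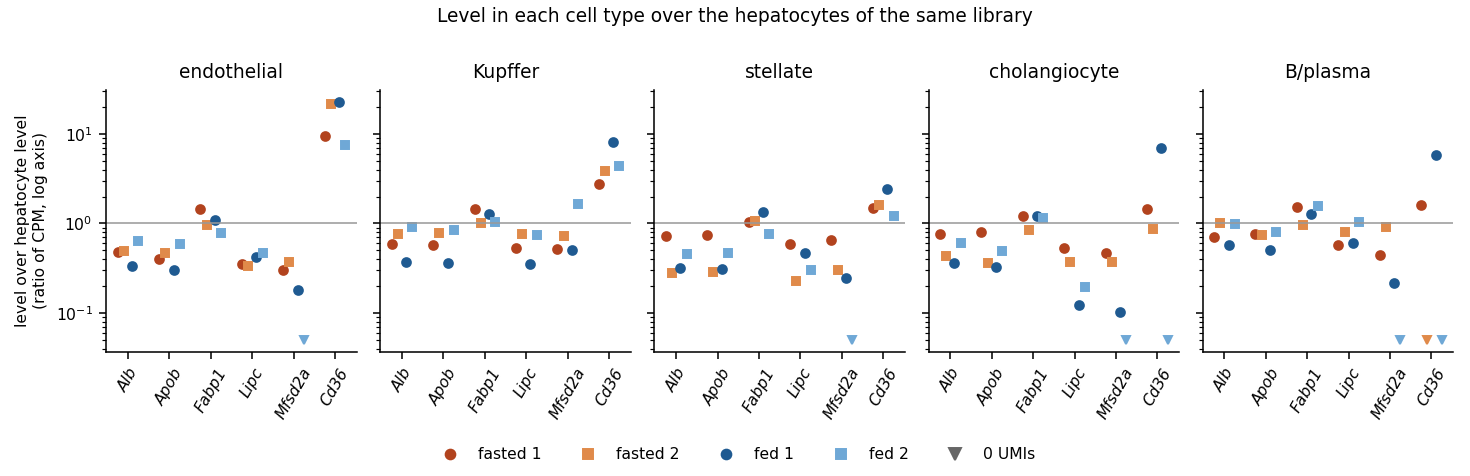
Level of each gene in 5 cell types divided by its level in hepatocytes of the same library (ratio of CPM, log axis), 1 point per library, with triangles at the foot for 0 UMIs. Alb and Apob mark hepatocyte RNA, and Fabp1 lies near 1. Mfsd2a has points at 0 (fed 2 in 4 types) and a point at 1.65 (Kupffer nuclei of fed 2, from 2 UMIs). Cd36 lies above 1 in endothelial, Kupffer and stellate nuclei. It has points at 0 in cholangiocytes of fed 2 and in B or plasma cells of fasted 2 and fed 2.

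Lpl, the lipoprotein lipase that macrophages, muscle and fat tissue secrete, was highest in Kupffer nuclei. Kupffer nuclei had 39.0 and 19.9 CPM in fasted 1 and 2 and 55.3 and 18.6 CPM in fed 1 and 2. Hepatocytes had 0.955 and 0.468 CPM when fasted and 0.772 and 1.65 CPM when fed. Stellate nuclei had 10.5 and 4.74 CPM when fasted and 7.42 and 0 CPM when fed, and the types below Kupffer nuclei had no common order over the libraries. A UMI of Lpl was found in 4.25% and 3.14% of Kupffer nuclei in the fasted libraries and in 4.56% and 2.25% in the fed libraries, beside 1 of 108 T or NK cells in fasted 2 and none in the other libraries. Lpl failed the low-count filter of the cell type fit. Without the filter, the log2 fold change against hepatocytes was 5.02 (SE 0.40, adjusted p 1.23e-33) in Kupffer nuclei and 2.87 (SE 0.49, adjusted p 9.24e-08) in stellate nuclei, where 10.3% and 11.7% of 25676 genes were called higher. These p-values are not comparable with those of the filtered fit. In 1 edgeR fit with a library left out, Lpl passed the filter, with log2 fold changes of 5.44 in Kupffer nuclei and 3.28 in stellate nuclei. It passed there only through its Kupffer counts, so that fit is no support. The Kupffer levels rest on 37, 14, 36 and 2 UMIs.

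Vldlr, the receptor for VLDL, a triglyceride-rich lipoprotein, was highest in cholangiocytes. They had 17.2 and 50.5 CPM in fasted 1 and 2 and 25.3 and 46.5 CPM in fed 1 and 2. The summed cholangiocyte nuclei were few, so these levels rest on 7, 8, 5 and 1 UMIs. Hepatocytes had 2.15 and 1.66 CPM when fasted and 1.48 and 1.80 CPM when fed. No UMI of Vldlr was counted in endothelial, Kupffer or stellate nuclei of any library, which in endothelial nuclei allowed up to 1.40 and 2.87 CPM in the fasted and 1.66 and 19.5 CPM in the fed libraries (3 counts, counting error only). Vldlr too failed the filter. Without it, the log2 fold change of cholangiocytes against hepatocytes was 3.63 (SE 0.56, adjusted p 2.47e-09), where 7.77% of genes were called higher. In 1 edgeR fit with a library left out, Vldlr passed the filter, with a log2 fold change of 3.79. It passed there only through its cholangiocyte counts, so that fit is no support.

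Of the 4 genes that passed the filter, 3 differed from hepatocytes in endothelial nuclei (background 51.8%) and 3 in Kupffer nuclei (36.4%). In stellate nuclei 2 of 4 differed (41.8%), in cholangiocytes 2 of 4 (29.5%) and in B or plasma cells 1 of 4 (15%). Only the rise of Cd36 in endothelial and Kupffer nuclei went upward.

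Between feeding states, Mfsd2a was the gene of the 6 whose fasted and fed libraries did not overlap in hepatocytes. Its 173 and 205 CPM in fasted hepatocytes stood against 48.7 and 11.3 CPM in fed ones, a log2 fold change of 2.66 (SE 0.65). It did not pass the test across all genes in edgeR (unadjusted p 0.00619, adjusted p 0.538), where only 1 of 13984 genes was called, a share of 0.00715%. At an unadjusted p under 0.05 stood 6.84% of genes and 1 of the 6. Fasted and fed libraries did not overlap for 36.4% of genes, and for 20.7% with fasted higher, so that property alone was common. DESeq2, which called 158 genes (1.15%), gave Mfsd2a 2.64 with an adjusted p of 0.00195 and called none of the other 5. Leaving out fed 1 gave 3.97 (adjusted p 2.78e-04) and leaving out fed 2 gave 1.99 (0.00827), while leaving out fasted 1 or 2 gave 2.80 (0.372) and 2.49 (1.00). Each of these fits assumes that the lone library of a group varies like the 2 of the other group. The size thus differed with the fed library. Mfsd2a was higher in fasted libraries under all 11 alternatives and passed under 4 of them.

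The other 5 genes had fasted and fed levels that overlapped in hepatocytes. Cd36 had a log2 fold change of 0.93 (SE 0.61, adjusted p 0.862), carried by fasted 1, since without that library it was -0.12. Lipc had 0.61 (SE 0.56, adjusted p 0.927) and -0.20 without fasted 2. Fabp1 had -0.33 (SE 0.35), Lpl -0.76 (SE 0.82) and Vldlr 0.19 (SE 0.61). None of these differences exceeded 2 times its standard error.

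In the other cell types Mfsd2a also had higher levels in every fasted library than in any fed one. Its log2 fold change was 3.09 (SE 0.66) in endothelial nuclei, 2.40 (SE 0.55) in Kupffer nuclei, 3.25 (SE 0.74) in stellate nuclei, 4.04 (SE 1.25) in cholangiocytes and 3.96 (SE 1.14) in B or plasma cells. None passed (adjusted p 0.275 to 1.00 in edgeR, 0.113 to 1.00 in DESeq2), in fits where 0.0605%, 0%, 0.0405%, 0.125% and 0% of genes were called. The call depended on the setting in endothelial nuclei, where Mfsd2a passed under 4 of 11 alternatives, and in stellate nuclei, where it passed under 3. In endothelial nuclei these were no low-count filter (adjusted p 0.00587), the replicate number as a block (0.00146), and leaving out fed 1 (0.0173) or fed 2 (0.00106). In stellate nuclei they were no filter (0.0279), the block (0.0379) and leaving out fasted 2 (0.0103). Without fed 1 the fitted values reached 9.15 and 9.12 in these types, where the only fed sum left, that of fed 2, held 0 UMIs. Where no gene was called, in Kupffer nuclei and in B or plasma cells, edgeR gave 252 and 118 genes (3.07% and 3.4%) an unadjusted p under 0.05 and DESeq2 called 10 and 6 (0.138% and 0.173%). Fasted and fed libraries did not overlap for 31%, 27.7%, 27%, 32.6% and 28.7% of genes in these types. The fed 2 sums of 4 of these types held 0 Mfsd2a UMIs, so the fitted values there depend on the prior count. The difference of the feeding effect between each type and hepatocytes did not pass for any of the 6 genes in edgeR (0.365%, 0.0281%, 0%, 0.0187% and 0% of genes in endothelial, Kupffer, stellate, cholangiocyte and B or plasma cells; DESeq2 was not run on it), and only Lipc in cholangiocytes (1.95) had an unadjusted p under 0.05. For Mfsd2a the difference was 0.16 (SE 0.60) in Kupffer nuclei, and -1.33 without fed 1. In endothelial nuclei it was 0.98 (SE 0.62), and 6.39 without fed 1. Cd36 in endothelial nuclei had 0.59 (SE 0.44) between fasted and fed, and in Kupffer nuclei -0.08 (SE 0.58). Lpl in Kupffer nuclei had -0.50 (SE 0.63). Lipc in cholangiocytes had 88.5 and 151 CPM when fasted against 15.2 and 46.5 CPM when fed, from 36, 24, 3 and 1 UMIs. The log2 fold change was 2.66 (SE 0.87, unadjusted p 0.00505, adjusted p 0.584 in edgeR), and 1.44 without fed 1. Alb in the same cholangiocytes stood at 0.766 and 0.430 times the hepatocyte level when fasted and at 0.358 and 0.602 times when fed.

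**Figure D3:**
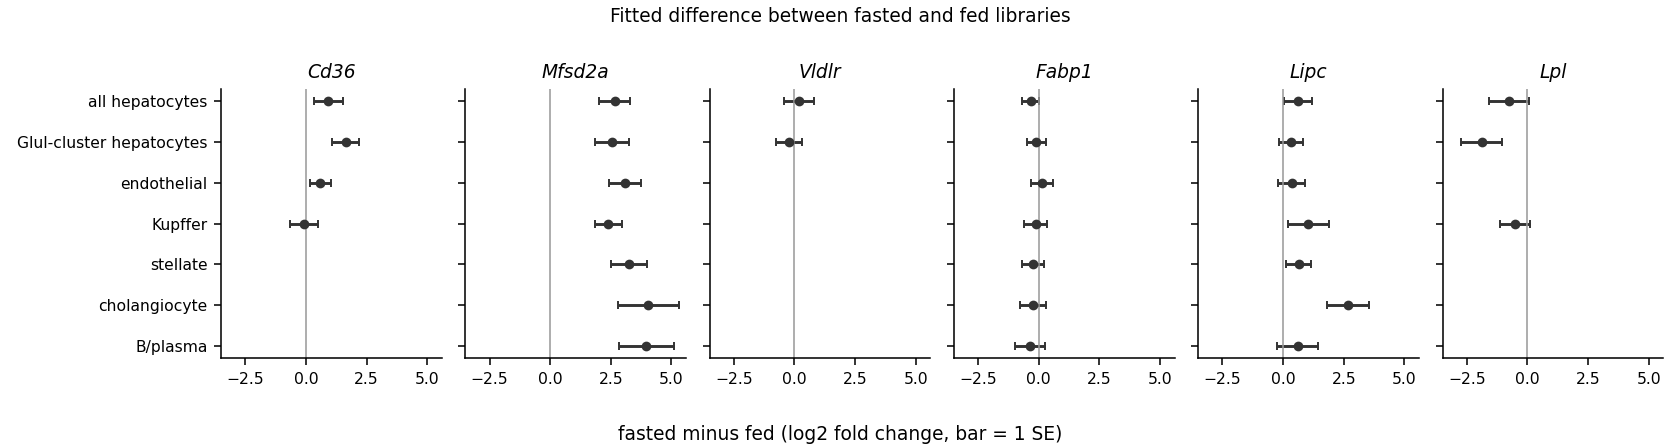
Fitted log2 fold change of fasted over fed libraries (points) with 1 standard error (bars) for each gene and group of nuclei, where a missing point means that the gene failed the low-count filter. Mfsd2a lies between 2.40 and 4.04 in all 7 groups, while Fabp1 lies between -0.36 and 0.13, and no value passed the adjusted threshold.

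Lobule position was scored in hepatocytes from landmark genes of the central side (such as Glul and Cyp2e1) and the portal side (such as Hal and Sds), on counts thinned to 1500 UMIs, which left 4797 and 4220 fasted and 4344 and 1543 fed nuclei. The nuclei of each library were split into 3 equal zones, portal, middle and central. Scores from separate sets of landmarks correlated with r of 0.577 to 0.623 over nuclei within a library. Mfsd2a was lowest on the central side in every library. In the central zone it had 104 and 101 CPM in fasted 1 and 2 and 30.9 and 5.76 CPM in fed 1 and 2. In the portal zone it had 256 and 314 CPM when fasted and 70.7 and 15.8 CPM when fed. The log2 fold change of central over portal was -1.41 (SE 0.08, adjusted p 7.86e-09 in edgeR with library as a term), and it fell with each step of 5 equal bins from portal to central in both fasted libraries.

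Cd36 ran the other way. In the central zone it had 44.8 and 13.3 CPM when fasted and 9.16 and 10.2 CPM when fed, against 7.92 and 3.68 CPM when fasted and 5.16 and 2.87 CPM when fed in the portal zone. The log2 fold change was 1.93 (SE 0.23, adjusted p 3.38e-05), and 1.40 without fasted 1. Most of the difference lay in the most central of the 5 bins, where Cd36 had 64.9 and 18.7 CPM in fasted 1 and 2 and 11.8 and 15.8 CPM in fed 1 and 2, while the next bin had 16.6 and 5.81 CPM and 5.20 and 3.06 CPM.

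Vldlr was found mainly on the central side. Its central zone had 4.79 and 3.77 CPM when fasted and 3.73 and 5.12 CPM when fed, from 35, 25, 22 and 8 UMIs. The portal zone had 0 and 0.368 CPM when fasted and 0.215 and 0 CPM when fed, from 0, 2, 1 and 0 UMIs. The fitted log2 fold change was 4.39 (SE 0.58, adjusted p 4.64e-05), a value that depends on the prior count because of the portal counts of 0. Lipc was slightly higher in the central zone (0.28, SE 0.07, adjusted p 0.00592) and Fabp1 did not pass (-0.14, SE 0.06, adjusted p 0.120). Lpl failed the filter, and without it had 2.19 (SE 0.73, adjusted p 0.0328) from 11 and 5 UMIs in the central zone when fasted and 11 and 6 when fed, and 5 and 0 UMIs in the portal zone when fasted and 0 and 1 when fed. So 4 of 5 tested genes differed by position, where 16.4% of 11451 genes did (8.22% in each direction). Vldlr passed the low-count filter only through its central counts, so its place in this count is no support.

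Markers of endothelial cells and Kupffer cells also varied along the score. The 8 endothelial markers summed to 34.9 and 9.20 CPM in the central zone when fasted and 29.2 and 24.3 CPM when fed, against 17.6 and 0.735 CPM when fasted and 14.2 and 20.1 CPM when fed in the portal zone. In endothelial nuclei themselves they summed to 9133 and 9253 CPM when fasted and 8704 and 4344 CPM when fed. Their part in the Cd36 difference was not tested.

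**Figure D4:**
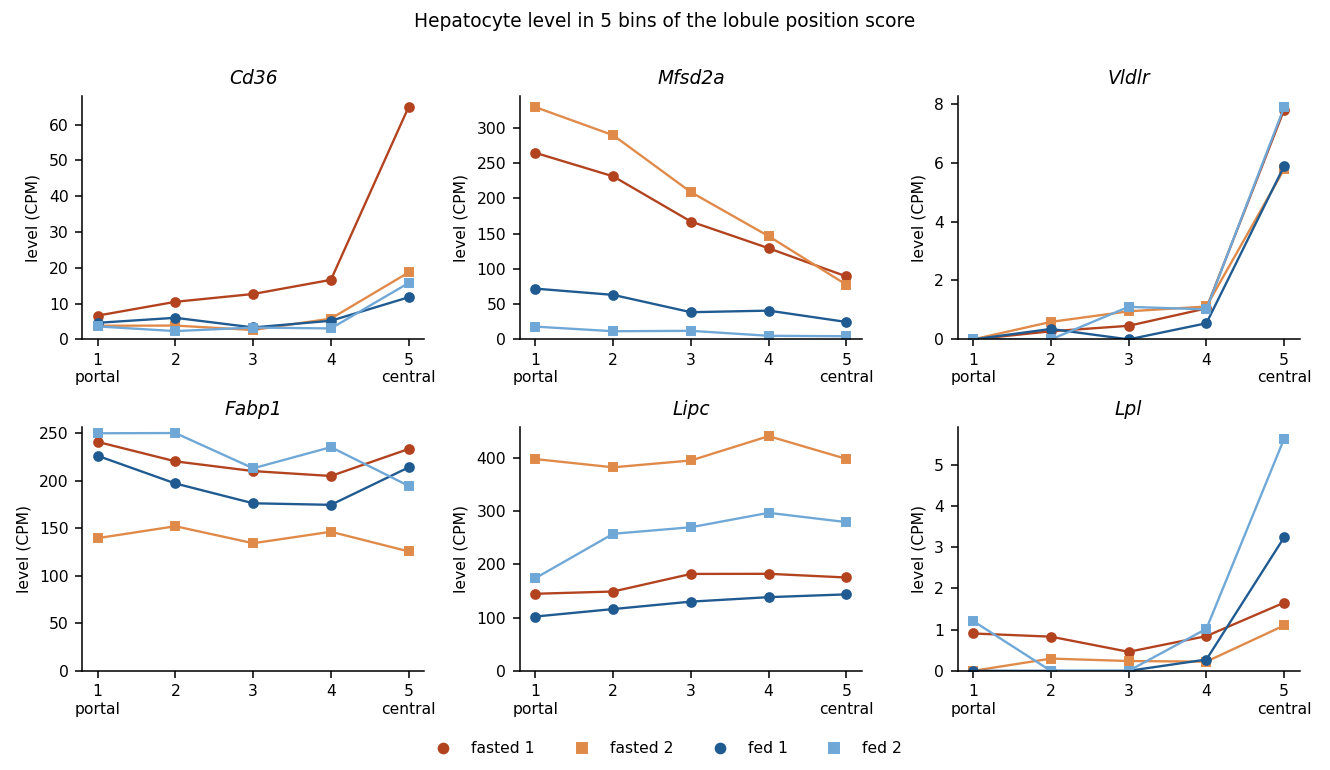
Level of each gene in hepatocytes (CPM) in 5 equal groups of nuclei from the portal to the central end of the position score, 1 line per library. Mfsd2a falls toward the central end in both fasted libraries, while Cd36 and Vldlr stay low until the most central bin, where Vldlr has 5.78 to 7.88 CPM and Cd36 11.8 to 64.9 CPM.

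The feeding effect on Cd36 was larger on the central side by its fitted value but did not pass the test. Between fasted and fed, Cd36 had log2 fold changes of 0.41 (SE 0.66), 1.10 (SE 0.78) and 1.53 (SE 0.65) in the portal, middle and central zones. Without fasted 1 these were -0.19, -0.21 and 0.41. The difference of the effect between central and portal zones was 1.25 (SE 0.45, unadjusted p 0.00802, adjusted p 0.335), where 0.609% of 12324 genes passed. It was 0.46 without fed 1 and 0.78 without fasted 1. Mfsd2a had 2.66 (SE 0.63), 2.83 (SE 0.64) and 2.38 (SE 0.66) in the portal, middle and central zones, and its difference between central and portal was -0.25 (SE 0.18, adjusted p 0.870). In each zone the fasted and fed levels of Mfsd2a did not overlap, as for 35.5%, 35.3% and 34.5% of genes, and none of the 3 values passed in the edgeR fits over all libraries (adjusted p 0.446 to 0.712; 0.00883%, 0% and 0.00843% of genes were called). With 1 library left out, Mfsd2a passed in all 4 fits in the middle zone (2.20 to 4.23, adjusted p up to 0.0363), in 2 in the portal zone (without fed 1, 4.04, and without fed 2, 2.02) and in 1 in the central zone (without fed 1, 4.01).

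The hepatocytes next to the central vein form a ring that expresses glutamine synthetase (Glul). A pair of clusters led by Glul and the glutamate transporter Slc1a2 held 702 and 543 nuclei of fasted 1 and 2 and 503 and 355 nuclei of fed 1 and 2, or 9.48% to 13.0% of the hepatocytes of a library. One of the pair came from fed 1 (99.2%) and the other from the remaining libraries. These clusters were singled out after the position results were seen, and their contrast with other hepatocytes is given without a test.

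Vldlr had 14.1 and 9.17 CPM in the Glul-led clusters of fasted 1 and 2 and 12.2 and 14.7 CPM in those of fed 1 and 2. Other hepatocytes had 0.167 and 0.703 CPM when fasted and 0.134 and 0.169 CPM when fed. Of all hepatocyte UMIs of Vldlr, the clusters held 93.3% and 62.5% when fasted and 92% and 91.7% when fed, beside 11.2% to 14.3% of all hepatocyte UMIs. Cholangiocyte markers, 8 genes, summed to 150 and 121 CPM in the Glul-led clusters when fasted and 121 and 198 CPM when fed. In other hepatocytes these markers summed to 154 and 141 CPM when fasted and 134 and 226 CPM when fed. Their part in the Vldlr level was not tested.

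Cd36 had 99.1 and 37.2 CPM in the Glul-led clusters of fasted 1 and 2, against 22.4 and 20.04 CPM in those of fed 1 and 2. Both fasted libraries were above both fed ones. The log2 fold change was 1.63 (SE 0.54), short of the threshold (unadjusted p 0.0204, adjusted p 0.815 in edgeR, 0.506 in DESeq2), and 0.78 without fasted 1. In this fit 0.0202% of 9900 genes were called and 33.1% had libraries that did not overlap. Other hepatocytes had 11.4 and 3.52 CPM when fasted and 5.35 and 7.10 CPM when fed, which overlapped. Endothelial markers in the Glul-led clusters summed to 85.4 and 29.4 CPM when fasted and 75.1 and 65.5 CPM when fed. In other hepatocytes these markers summed to 17.1 and 1.82 CPM when fasted and 16.0 and 47.3 CPM when fed, lower in every library. Their part in the Cd36 difference was not tested.

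Lpl had 3.01 and 1.38 CPM in the Glul-led clusters of fasted 1 and 2, against 6.39 and 10.7 CPM in those of fed 1 and 2, from 9, 3, 12 and 8 UMIs. Both fed libraries were above both fasted ones, and the log2 fold change of -1.89 (SE 0.84, adjusted p 0.986) did not pass. Kupffer markers, 8 genes, summed there to 26.4 and 10.6 CPM when fasted and 27.7 and 18.7 CPM when fed, against 3242 and 1955 CPM and 3895 and 1367 CPM in Kupffer nuclei. In other hepatocytes these markers summed to 4.79 and 0.703 CPM when fasted and 4.08 and 17.1 CPM when fed, lower in every library. Their part in the Lpl level was not tested. Mfsd2a had 95.4 and 80.7 CPM in the Glul-led clusters when fasted and 24.0 and 2.67 CPM when fed, below other hepatocytes of the same library in all 4 libraries. Its log2 fold change between feeding states there was 2.54 (SE 0.70, adjusted p 0.728 in edgeR, 0.0375 in DESeq2, which called 0.457% of genes), and 4.91 without fed 1. Fabp1 (128 to 246 CPM) and Lipc (133 to 334 CPM) overlapped with other hepatocytes (142 to 252 CPM and 124 to 412 CPM).

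**Figure D5:**
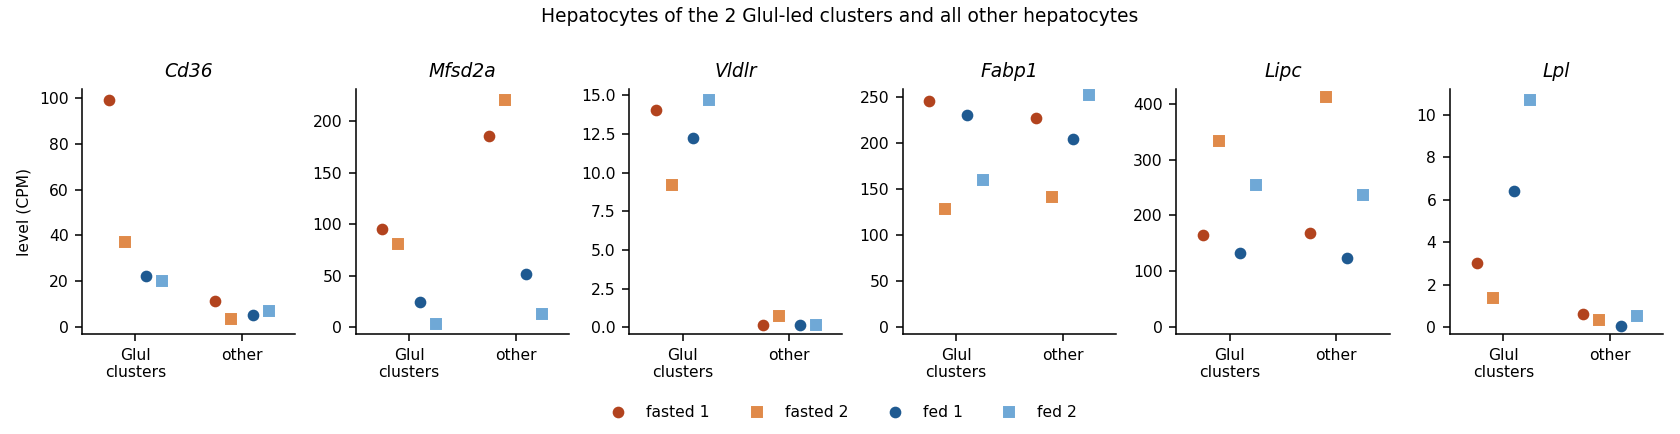
Level of each gene (CPM, linear axis) in the Glul-led hepatocyte clusters and in all other hepatocytes, 1 point per library, fasted libraries left of fed ones. Vldlr, Cd36 and Lpl are higher in the Glul-led clusters of every library and Mfsd2a is lower, with 99.1 and 37.2 CPM of Cd36 when fasted and 22.4 and 20.04 CPM when fed. The summed endothelial and Kupffer markers, not drawn, were also higher in the Glul-led clusters of every library.

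Position was also scored in endothelial nuclei, where Cd36 was lower in the central than in the portal zone (log2 fold change -0.59, SE 0.13, adjusted p 8.13e-04; 0.723% of 6643 genes were called). The central zone had 192 and 157 CPM when fasted and 111 and 0 CPM when fed, and the portal zone 282 and 176 CPM when fasted and 203 and 108 CPM when fed. This score was weak, since separate sets of landmarks correlated with r of only 0.0542 to 0.160 over nuclei. Many nuclei also had tied scores. In every library the highest portal score equalled the lowest central score, and all middle-zone nuclei shared it. Tied nuclei were placed in zones by their order in the data, so the portal and central zones are not cleanly separated. The call was lost without fasted 1 (adjusted p 0.0775) or fed 1 (0.316).

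A list of 41 other genes of lipid uptake covered transport proteins, binding proteins, acyl-CoA synthetases, lipoprotein receptors, lipases and their partners, and the nuclear receptors that regulate them. This list too was chosen with earlier results of these data known, so its counts beside shares of all genes are descriptions only. Between feeding states in hepatocytes, 0 of 34 tested passed in edgeR, 8 had an unadjusted p under 0.05, DESeq2 called 2 (Acsl3 and Angptl8), and 13 had libraries that did not overlap, beside 36.4% of all genes. Their median log2 fold change was -0.07, beside -0.01 over all genes. The largest differences among those that did not overlap were in Angptl8, Slc27a1 and Fabp2. Angptl8, an inhibitor of lipoprotein lipase that feeding induces, had 16.6 and 13.0 CPM in fasted 1 and 2 against 100 and 81.9 CPM in fed 1 and 2 (log2 fold change -2.65, SE 0.33, adjusted p 0.209). Slc27a1, a fatty acid transport protein, had 14.2 and 17.8 CPM when fasted against 0.831 and 5.40 CPM when fed (2.37, SE 0.89, adjusted p 0.689). Fabp2, a binding protein best known from the intestine, had 7.78 and 4.78 CPM when fasted against 2.85 and 0.901 CPM when fed (1.67, SE 0.67, adjusted p 0.721).

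By lobule position, 13 of 32 tested genes of the list passed, 5 higher and 8 lower in the central zone, beside 16.4% of all genes and 8.22% in each direction, and their median was -0.09 beside -0.01 over all genes. The higher ones were Pparg (3.75), a nuclear receptor of lipid storage, the sorting receptor Sort1 (1.47), Slc27a1 (1.54), the receptor partner Rxra (0.66) and the lipoprotein receptor Lrp1 (0.21). Among the lower were the heparan sulfate carrier Sdc1 (-0.78), the acyl-CoA synthetases Acsl3 (-0.70) and Acsl5 (-0.58), the lipoprotein receptor Lsr (-0.48), and Apoa5 (-0.47), Angptl8 (-0.46) and Apoc3 (-0.42), which act on lipase. Against hepatocytes, the list had 3 genes higher and 22 lower of 31 tested in endothelial nuclei (median -1.14, all genes -0.07), where 51.8% of all genes differed. The binding protein Fabp4 (6.41) and caveolin Cav1 (4.32) were the leading ones that were higher there. In Kupffer nuclei 4 were higher and 14 lower (median -0.60, all genes -0.10) where 36.4% of all genes differed, with Pparg (1.25) and Nr1h3 (1.13), the nuclear receptor LXR alpha, among the higher.

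The genes with the most similar profiles were found by Pearson's r of log levels, given as descriptions because the sums share libraries. Over 24 sums of cell type and library, Cd36 was most like Spats2 (0.896), Fas (0.894) and Mrc1 (0.881), and Lpl most like Siglec1 (0.919), Aoah (0.912) and Lair1 (0.894). Vldlr was most like Nebl (0.899), Shank2 (0.893) and Bdkrb2 (0.892), Lipc like Ctif (0.935), Fabp1 like Pgrmc1 (0.873) and Mfsd2a like Tesmin (0.956). Over 12 sums of hepatocyte zone and library, Vldlr was most like Rcan2 (0.987), Glul (0.966) and Kif26b (0.957). Glul is a landmark of the score that set the zones, so its likeness to a gene of the central zone is partly built in. Mfsd2a was most like Pptc7 (0.988), Gm16573 (0.988) and Ppargc1a (0.984), Cd36 like Hpgd (0.904), Fabp1 like Pkhd1 (0.955), Lipc like Akap9 (0.984) and Lpl like 1700028E10Rik (0.892).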

How the data were processed

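Single-nucleus RNA was sequenced in 4 libraries, 2 fasted and 2 fed. Per the submitters' processing notes, the authors used Cell Ranger 6.0 and the mm10 build, and the deposited files hold raw UMI counts per gene symbol and barcode, not normalized. Between 13.2% and 17.0% of the stored entries are 0, which may reflect a correction of counts that the sources used here do not describe. Whether counting used strand is not stated.

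Barcodes under 500 genes or above 5% mitochondrial UMIs were dropped. Doublets were scored with Scrublet in scanpy 1.11.5. Its automatic thresholds marked 1986, 0, 1 and 1 barcodes, so the top 0.8% per 1000 barcodes were removed instead, a rule chosen after those thresholds were seen. Clusters (leidenalg 0.10.2, 2000 variable genes, 30 components, 15 neighbours, resolution 1, no batch integration) were named from marker lists of which at least 3 had to be detected. Counts were summed per library and cell type or position bin and tested with edgeR 4.0.16 (TMM, filterByExpr, robust quasi-likelihood, Benjamini-Hochberg over all genes tested, threshold 0.05) in R 4.3.3, with DESeq2 1.42.0 as an alternative. SE was derived from the fold change and the F statistic. Types with fewer than 20 nuclei in a library were not tested. The fits were tested on simulated data with large changes and a small fixed scatter, which does not show how they perform on these libraries.

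The 6 genes and the lists were chosen with earlier results of these data known. Genes outside the 6 were named when they passed the threshold (up to 10 per comparison by adjusted p), otherwise up to 3 with the largest change and no overlap, and up to 3 by likeness; Lrp1 and Angptl8 by position were named beyond this rule, after their values were seen, and 1 gene of the list is not reported here. Gene positions are from GENCODE on mm10 and promoters from RefSeq GRCm38.p6, where 5 of the 6 symbols matched. Alternatives were RLE scaling, no low-count filter, the replicate number as a block, DESeq2, each library left out, stored zeros as 1, doublets kept, at least 1000 UMIs, the outer of 5 bins and thinning to 1000 UMIs. The total UMIs of a cell type, from 21507 in fed 2 cholangiocytes to 20940027 in fasted 1 hepatocytes, set the precision of each level.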

Additional observations from a re-analysis of the deposited data

Results flagged for a closer look

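Fabp1 reached 1482 CPM in an unnamed cluster of 134 nuclei that enters no comparison, above its level in every named cluster. Its level was 1701 CPM in fasted 1, 612 CPM in fasted 2 and 1216 CPM in fed 1, from 278, 3 and 144 UMIs. Fasted 2 gave only 5 of the nuclei, and fed 2 gave none. The cluster was led by mitochondrial transcripts such as mt-Co3, and Alb there stood at 1.85 and 1.85 times the hepatocyte level in fasted 1 and 2 and at 1.31 times in fed 1. Fabp1 stood there at 7.41 and 4.36 times its hepatocyte level when fasted and at 5.88 times in fed 1. It was singled out because it is a signal in nuclei outside the comparisons.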

How the results depend on the processing

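Over 77 results and 565 alternatives, 491 values kept their direction and side of the threshold, 33 passed where the reported fit did not, 9 no longer passed and 32 changed sign. Counts of called genes moved most. In hepatocytes, 1 gene differed by feeding state, against 0 under RLE scaling, with stored zeros as 1 or with nuclei of at least 1000 UMIs, 276 with no low-count filter, 158 in DESeq2, and 4 to 365 with 1 library left out (the most without fed 1). In the 5 other types 14 were called, against 9 under RLE, 99 with no filter, 47 in DESeq2, 22 with doublets kept and 37 to 221 with 1 library left out. Cell types against hepatocytes gave 16131 calls and 10096 to 17639 with 1 library left out. Feeding state by cell type gave 44, against 17 under RLE, 163 with no filter and 2 to 322 with 1 library left out. Feeding state by position gave 75, against 131 with no filter, 26 in the outer of 5 bins and 18 to 69 with 1 library left out. Position in endothelial nuclei gave 48 (23 to 58), feeding state within zones 2 (38 to 870) and in the Glul-led clusters 2 (5 to 434, and 40 in DESeq2).

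With the replicate number as a block, 92 genes were called in hepatocytes and 155 in the other types. Mfsd2a then had 2.90 (adjusted p 0.113) in hepatocytes, 2.87 (0.00146) in endothelial nuclei and 3.52 (0.0379) in stellate nuclei in edgeR. Same-numbered libraries deviated together (r 0.140 to 0.453 across genes, 2 pairs), but the labels give the numbers no shared mouse, day or batch.

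None of the values that changed sign passed. Cd36 in Kupffer nuclei by feeding state had 0.056 with the block, 0.0095 with stored zeros as 1 and -0.76 to 0.40 with 1 library left out. Fabp1 against hepatocytes under RLE had 0.16 in endothelial nuclei, 0.20 in stellate nuclei and 0.043 in cholangiocytes, and with no filter -0.021 in Kupffer nuclei and -0.062 in B or plasma cells. Cd36 by feeding state and cell type in endothelial nuclei had -0.13 under RLE and -0.14 with no filter. Fabp1 by feeding state and position had -0.0056 with thinning to 1000 UMIs. RLE moved the median of all genes by 0.15 to 0.21 against hepatocytes, and Cd36 in stellate nuclei then passed (0.87, adjusted p 0.0443).

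With 1 library left out, these values by feeding state spanned 0. In hepatocytes Cd36 had -0.12 to 1.53, Lipc -0.20 to 1.24 and Vldlr -0.022 to 0.39. Lpl in Kupffer nuclei had -0.98 to 0.56. Cd36 had -0.19 to 0.87 in the portal zone and -0.21 to 1.77 in the middle zone, and its difference between endothelial nuclei and hepatocytes -0.67 to 0.86. The same difference between Kupffer nuclei and hepatocytes had -1.33 to 0.33 for Mfsd2a. In the Glul-led clusters Fabp1 had -0.63 to 0.29, Lipc -0.30 to 0.93 and Vldlr -0.57 to 0.024. Fabp1 by feeding state and position had -0.0099 to 0.10. Against hepatocytes, Fabp1 had -0.064 to 0.15 in endothelial and -0.066 to 0.21 in stellate nuclei.

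Depth limits the rarer genes. Lpl and Vldlr rest on few UMIs in most groups, and fed 2 gave only 155 endothelial nuclei and 25 cholangiocytes. With 2 pooled preparations per group, a difference that did not pass is not shown to be absent.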
